A study of Mus musculus with 11 samples.

Results

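Nitric oxide and cGMP kinase signalling was followed through 5 genes, Nos1, Nos1ap, Gucy1a2, Prkg1 and Prkg2, chosen by their symbols among the 30986 rows of a table of RNA fragments bound by FMRP. FMRP is the RNA-binding protein whose loss causes Fragile X syndrome. The fragments came from cerebellum, cortex and hippocampus of mice at postnatal day 13, recovered by immunoprecipitation of FMRP after crosslinking of the ground tissue with ultraviolet light. All groups share the age and the treatment, and the sources used here give no strain, genotype or sex. The table holds 2 cerebellum, 3 cortex and 5 hippocampus libraries, and 1 library whose title names cortex and whose tissue label names hippocampus. That library was left out of the comparisons. The counts of hippocampus 1 and 2 agree within sampling noise (a chi-square of 1.04 for each degree of freedom over 1873 rows, against 1.53 to 23.8 in the other 13 pairs within a region), so both were summed as 1 sample, hippocampus 1+2, which leaves 2 cerebellum, 3 cortex and 4 hippocampus samples. The 7 cortex and hippocampus samples are together called forebrain.

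In neurons calcium entering through NMDA receptors activates neuronal nitric oxide synthase, the product of Nos1, which is held near the receptor by the scaffold PSD-95. Nitric oxide diffuses to soluble guanylyl cyclase, a dimer of an alpha and a beta subunit, and the cGMP made there activates the cGMP-dependent kinases, opens cyclic nucleotide-gated channels and is removed by phosphodiesterases. In the cerebellum this pathway is known for its part in long-term depression at the synapse between parallel fibres and Purkinje cells. Nos1 is known there from granule cells and molecular layer interneurons, and Prkg1 from Purkinje cells.

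Totals ran from 11898 to 197382 counts per sample, so that 1 count was worth 84.0 CPM in cortex 3 and 5.07 CPM in cerebellum 2. CPM are counts scaled to a library total of 1000000, and the intervals and limits below cover counting error only, since amplified fragments are not independent molecules. Whether samples of a region came from separate animals is not given, and p-values then measure only how far these samples spread, which may be technical. Regional markers were set against the labels. Fat2, a cadherin of granule cells, had 3436 ± 919 CPM in cerebellum (SD, n = 2) and 113 ± 147 CPM in forebrain (n = 7), with 5 counts (420.2 CPM) in cortex 3. Camk2a, a kinase subunit of forebrain excitatory neurons, had 46.3 ± 6.19 CPM in cerebellum and 1162 ± 760 CPM in forebrain. Prox1, a factor of dentate granule cells, had 17.9 ± 31.1 CPM over the cortex samples and 196 ± 57.8 CPM over those of hippocampus (adjusted p = 0.41, edgeR). Other listed hippocampal markers were mixed. Spock1 (181 ± 211 against 98.2 ± 64.4 CPM) and Wfs1 (58.7 ± 75.2 against 47.7 ± 59.5) had higher means in cortex than in hippocampus. Zbtb20, Nr3c2, Il16, Ociad2 and Pou3f1 had higher means in hippocampus than in cortex, but Il16 was highest in cerebellum (342 ± 24.7 CPM). Cortex 3, hippocampus 3 and hippocampus 4 stood apart, with 12.2 to 12.6% of their counts on predicted gene names (Gm followed by digits), against 3.1 to 7.5% in the other samples. Neither input RNA nor tissue lacking FMRP was analysed here, so the amount of an RNA and its binding cannot be told apart. In whole tissue, fewer cells of a type and less RNA per cell cannot be told apart either.

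Short motifs reported for FMRP in earlier binding studies were counted in the coding sequence of each gene, because the table names genes and gives no positions of the fragments. Searched on the transcript strand with overlapping matches counted, AGGA or TGGA occurred 19.8 times per kb in Nos1, 21.9 in Nos1ap, 17.4 in Gucy1a2, 22.9 in Prkg1 and 18.8 in Prkg2. The median over 1640 tested genes with a coding sequence was 16.0 per kb, and 64.1% (Gucy1a2) to 93.4% (Prkg1) of them had a lower density than the member. GACA or GACG occurred 8.89, 11.9, 5.94, 12.4 and 7.87 times per kb in the same order of genes (median 7.71), and ACTG or ACTT 3.65, 4.64, 9.59, 9.94 and 9.19 times (median 8.21). For ACTG or ACTT, 3.2% of tested genes lay below Nos1 and 6.8% below Nos1ap. The 60 bases of coding sequence within 1 exon that hold the most AGGA or TGGA are shown for each gene to let the motif be seen in place, with the matches in capitals (GENCODE M21 transcripts, GRCm38, written as DNA, 5′ to 3′ on the transcript strand).
Nos1: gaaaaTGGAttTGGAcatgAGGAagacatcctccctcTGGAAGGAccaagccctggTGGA
Nos1ap: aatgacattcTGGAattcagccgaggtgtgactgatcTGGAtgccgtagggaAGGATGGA
Gucy1a2: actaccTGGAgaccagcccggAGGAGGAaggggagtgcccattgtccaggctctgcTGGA
Prkg1: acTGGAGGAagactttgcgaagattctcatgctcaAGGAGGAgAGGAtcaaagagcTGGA
Prkg2: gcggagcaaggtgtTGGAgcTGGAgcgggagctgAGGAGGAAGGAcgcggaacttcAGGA
The windows lie at chr5:117908001-117908060 (plus strand) in coding exon 10 of 29 of Nos1, at chr1:170329162-170329221 (minus) in coding exon 7 of 10 of Nos1ap and at chr9:3532852-3532911 (plus) in the first coding exon of Gucy1a2. Those of the kinases lie at chr19:31764755-31764814 (minus) in the first coding exon of Prkg1 and at chr5:99024718-99024777 (minus) in that of Prkg2. The richest window was chosen in the same way in each of 1640 tested genes. It held 6 or more matches in 15.4% of them, as in Nos1, Prkg1 and Prkg2, and 4 or more in 71.6%, as in Nos1ap and Gucy1a2, so such windows were common. These matches describe the sequence and are no sign of where FMRP was bound.

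Nos1, at chr5:117781032-117958840 on the plus strand, was the member with the clearest regional difference. It had 37 counts (387.6 CPM) in cerebellum 1 and 83 counts (420.5 CPM) in cerebellum 2. In cortex it had 3, 5 and 1 counts, which are 97.7, 89.6 and 84.0 CPM in cortex 1, 2 and 3. In hippocampus it had 17, 15, 4 and 5 counts, which are 130.5, 127.9, 182.3 and 232.2 CPM in hippocampus 1+2, 3, 4 and 5. Both cerebellum samples lay above all 7 forebrain samples, and the levels were 404 ± 23.3 CPM over the 2 cerebellum samples, 90.4 ± 6.84 over the 3 of cortex and 168 ± 49.5 over the 4 of hippocampus (mean ± SD). By its mean, Nos1 ranked 290 among all rows in cerebellum, 2401 in cortex and 882 in hippocampus.

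**Figure D1:**
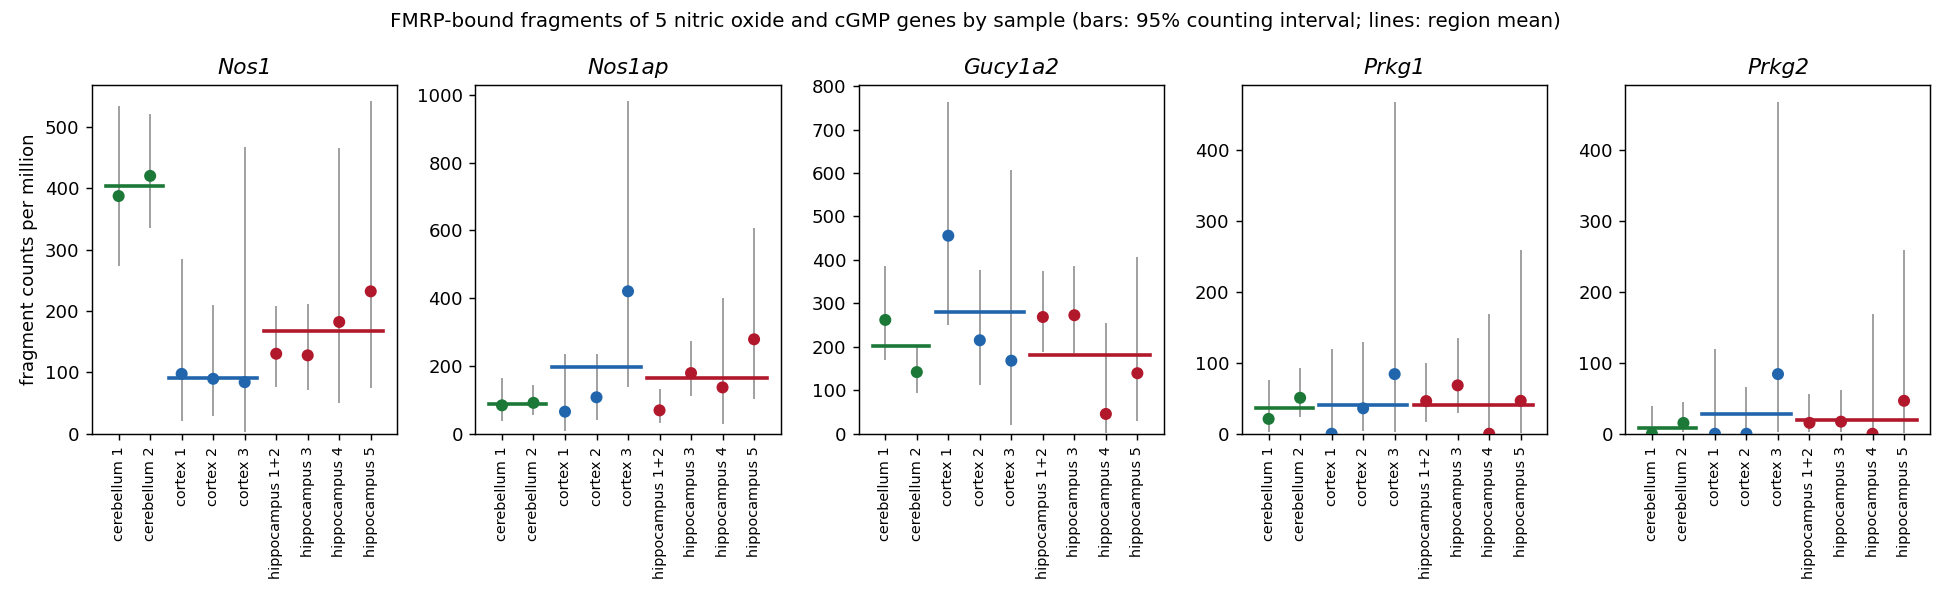
Fragment levels in CPM (vertical axis, a separate scale for each gene) in 2 cerebellum, 3 cortex and 4 hippocampus samples, with 95% exact counting intervals as bars and the mean of each region as a line. Nos1 stands at 387.6 and 420.5 CPM in cerebellum and at 84.0 to 232.2 CPM in forebrain, while the values of the other 4 genes overlap between cerebellum and forebrain.

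In the fit over all 9 samples, with the numeric code of the sample titles as a block, Nos1 was higher in cerebellum than in forebrain, with log2 fold change 1.89, approximate SE 0.57 and an adjusted p of 0.0158 in edgeR. It was the only call among the 3 members that passed the filter on low counts, in a comparison that called 7.67% of 1720 tested rows, 3.9% as higher and 3.78% as lower. Against cortex alone Nos1 was also higher, with log2 fold change 2.48, SE 0.78 and an adjusted p of 0.0393 in edgeR, where 4.59% of rows were called, 2.21% as higher and 2.38% as lower. Against hippocampus alone the log2 fold change was 1.3 with SE 0.53 and missed the threshold (adjusted p of 0.133 in edgeR, where 6.4% were called, 3.08% as higher and 3.31% as lower). Within the title code that cerebellum 1 shares with cortex 1 and hippocampus 1+2 the log2 ratio of CPM was 1.76, and within the code that cerebellum 2 shares with hippocampus 3 it was 1.72. An exact two-sided permutation test on log2 CPM gave p = 0.0278, the smallest that 36 splits allow (0.143 adjusted over 10 tests). This test used no block for the title code. Of tested rows, 9.3% had cerebellum samples all above forebrain, against 4.3% with all below.

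The cerebellar excess of Nos1 kept its direction in all 22 alternative fits (2 of which, with the library of conflicting labels as cortex or as hippocampus under the block, are 1 fit in effect, since that library is alone in its title code), with log2 fold changes from 1.62 to 2.2 (adjusted p from 0.00297 to 1, edgeR and DESeq2), and 12 of the 22 kept the call. The call was lost without cerebellum 1 (adjusted p = 0.742), cerebellum 2 (0.227), cortex 1 (0.281), hippocampus 1+2 (0.162), hippocampus 3 (0.0505) or hippocampus 5 (0.0764), each in edgeR, and with all 9 samples in DESeq2 (0.0751), with library totals alone as scaling (0.0668) and with no filter on low counts (1). It was also lost with only the libraries whose titles begin with s (log2 fold change 1.92, edgeR). The call held with the title-code block left out (1.82, adjusted p = 0.00467, edgeR). It also held without cortex 3, hippocampus 3 and hippocampus 4 together (2.03, adjusted p = 0.00642, edgeR). Against cortex alone the call was lost in 11 of 22 alternatives. These were the omission of any one sample except cortex 3 and hippocampus 3 (log2 fold changes from 2.33 to 2.74, edgeR), DESeq2 (adjusted p = 0.0915), library totals alone (0.172), no filter (1) and only s-titled libraries (log2 fold change 2.28). Where the omitted sample was from cortex or hippocampus, the lost calls had adjusted p from 0.081 (without hippocampus 1+2) to 0.575 (without cortex 1) in edgeR. Against hippocampus alone 1 of 22 alternatives made the call, with hippocampus 1 and 2 kept as separate libraries (1.28, adjusted p = 0.0427, edgeR).

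The granule cell markers moved with the same contrast. Their summed level over 10 genes ran from 6089.7 to 7490.5 CPM in cerebellum and from 227.9 to 882.4 CPM in forebrain. All 4 tested members were called as higher. A marker can pass the filter on low counts through the 2 cerebellum samples alone, so these calls are no separate evidence. Of the 10, Gabra6, Zic2 and Cbln3 were at 0 in cortex. The sum of 11 GABAergic interneuron markers ran from 1292 to 1404 CPM in cerebellum and from 690.7 to 985.9 CPM in forebrain, with 1 of 3 tested members called as higher and Npy at 0 in both cerebellum samples. Reln, the called member, and Erbb4 carried that sum, and the other 9 ran from 178.1 to 374.9 CPM in cerebellum and from 434.7 to 557.3 CPM in forebrain. Among these 9, Gad2, which encodes an enzyme of GABA synthesis, had 58.8 ± 38.7, 225 ± 54.97 and 176 ± 72.7 CPM in cerebellum, cortex and hippocampus. For cerebellum over forebrain it had -1.65 on the log2 scale (SE 0.7, adjusted p = 0.156, edgeR). The part of cell composition in the Nos1 difference was not tested. An antisense gene, Gm26995, overlaps exons of Nos1 and has no row in the table, and since the use of strand is not given, fragments of both cannot be told apart.

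Between cortex and hippocampus the Nos1 samples did not overlap, with at most 97.7 CPM in cortex and at least 127.9 CPM in hippocampus. The exact two-sided permutation p was 0.0286, the smallest of 35 splits (0.143 adjusted over 10 tests), and 1.45% of tested rows had cortex samples all below hippocampus, against 2.44% with all above. Within title codes the log2 ratio of CPM was -0.42 for cortex 1 and -1.25 for cortex 2 and 3. The edgeR log2 fold change was -1.18 (SE 0.71, adjusted p = 0.999), in a comparison with 0 of 1720 rows called by edgeR, 68 rows (3.95%) at an unadjusted p under 0.05 and 1 row called by DESeq2. The cortex values rest on 9 counts in all, which give 91.5 CPM (95% interval 41.8 to 173.6), and the hippocampus values on 41 counts, which give 140.8 CPM (101.1 to 191.1). When hippocampus 1 and 2 are kept apart, hippocampus 1 has 96.9 CPM and falls among the cortex samples. The order of the regions was thus cerebellum, hippocampus, cortex, and cerebellum and hippocampus, like hippocampus and cortex, did not differ past the threshold, except that cerebellum and hippocampus did with hippocampus 1 and 2 kept apart.

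Nos1ap encodes an adaptor that binds the PDZ domain of neuronal nitric oxide synthase and competes there with PSD-95. The gene lies at chr1:170302668-170589861 on the minus strand. It had 8 counts (83.8 CPM) in cerebellum 1 and 18 counts (91.2 CPM) in cerebellum 2. Cortex 1, 2 and 3 had 2, 6 and 5 counts, or 65.1, 107.6 and 420.2 CPM, and hippocampus 1+2, 3, 4 and 5 had 9, 21, 3 and 6 counts, or 69.1, 179.0, 136.7 and 278.7 CPM. The cerebellum samples thus lay inside the forebrain range, near its lower end. The levels were 87.5 ± 5.22 CPM over the 2 cerebellum samples, 198 ± 194 over the 3 of cortex and 166 ± 87.8 over the 4 of hippocampus (mean ± SD).

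For Nos1ap the log2 fold change of cerebellum over forebrain was -0.53 (SE 0.72, adjusted p = 0.828, edgeR), with an approximate 95% interval from -1.93 to 0.88. It turned to 0.5 without cerebellum 2 and to 0.47 without hippocampus 3, and within the title codes the log2 ratios of CPM were 0.32 (code of cerebellum 1) and -0.97 (code of cerebellum 2). The summed counts of cortex 3, hippocampus 3 and hippocampus 4, the samples with most predicted names, gave 191.8 CPM (95% interval 128.5 to 275.5). Those of the other 4 forebrain samples gave 96.5 CPM (61.2 to 144.8), and those of cerebellum 88.8 CPM (58.0 to 130.1). Without those 3 samples Nos1ap did not pass the filter on low counts, so the fit gives no value for it there. A predicted gene on the same strand, Gm7694, shares exon sequence with Nos1ap and has its own row with 9 counts, so the split of fragments between the rows is uncertain.

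Gucy1a2 encodes the alpha-2 subunit of soluble guanylyl cyclase, the form that a PDZ interaction brings to synapses. The gene lies at chr9:3532778-3894736 on the plus strand. It had 25 counts (261.9 CPM) in cerebellum 1 and 28 counts (141.9 CPM) in cerebellum 2. Cortex 1, 2 and 3 had 14, 12 and 2 counts, or 455.7, 215.1 and 168.1 CPM, and hippocampus 1+2, 3, 4 and 5 had 35, 32, 1 and 3 counts, or 268.6, 272.8, 45.6 and 139.3 CPM. The regions overlapped, at 202 ± 84.9 CPM over the 2 cerebellum samples, 280 ± 154 over the 3 of cortex and 182 ± 110 over the 4 of hippocampus (mean ± SD).

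With the title code as a block, the log2 fold change of Gucy1a2 in cerebellum over forebrain was -0.9 (SE 0.52, adjusted p = 0.388, edgeR). Without that block it was -0.32 (adjusted p = 0.813, edgeR). The approximate 95% interval under the block ran from -1.92 to 0.13, and unblocked log2 CPM differed by 0.03 (exact two-sided permutation p = 0.944). Within title codes the log2 ratio of CPM was -0.47 for cerebellum 1 against cortex 1 and hippocampus 1+2, and -0.94 for cerebellum 2 against hippocampus 3. Cortex over hippocampus gave 0.41 (SE 0.59, adjusted p = 0.999, edgeR), and 0.76 and 1.05 within the codes that hold both. With the block left out the fitted value was -0.06. No other annotated gene overlaps Gucy1a2.

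The cGMP-dependent kinase genes stood at a handful of counts per sample and did not pass the filter on low counts, so no fit value is given for them. Prkg1, the gene of kinase I, spans chr19:30564489-31765033 on the minus strand, and its row joins the alpha and beta forms. It had 2 and 10 counts in cerebellum 1 and 2 (20.9 and 50.7 CPM). It had 0, 2 and 1 counts in cortex 1 to 3 (0, 35.9 and 84.0 CPM) and 6, 8, 0 and 1 counts in hippocampus 1+2, 3, 4 and 5 (46.0, 68.2, 0 and 46.4 CPM). Taken as up to 3 counts, the counts of 0 allow 97.7 CPM in cortex 1 and 136.7 CPM in hippocampus 4. The exact 95% intervals there reach 120.1 and 168.1 CPM. Summed by region, Prkg1 had 41.0 CPM in cerebellum (95% interval 21.2 to 71.6), 30.5 in cortex (6.29 to 89.1) and 51.5 in hippocampus (28.8 to 85.0). The intervals overlap throughout, and exact two-sided permutation gave p = 0.917 for cerebellum against forebrain and p = 0.771 for cortex against hippocampus. Cstf2t, a gene within an intron of Prkg1 on the opposite strand, has a row of its own with 36 counts.

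Prkg2, the gene of the membrane-anchored kinase II, lies at chr5:98929773-99037351 on the minus strand and had 9 counts over the 9 samples. These were 0 and 3 in cerebellum 1 and 2, 0, 0 and 1 in cortex 1 to 3, and 2, 2, 0 and 1 in hippocampus 1+2, 3, 4 and 5. No sample had more than 3 counts, so no order of regions can be read from them. Summed levels were 10.2 CPM in cerebellum (95% interval 2.11 to 29.9), 10.2 in cortex (0.26 to 56.6) and 17.2 in hippocampus (5.58 to 40.1). Exact two-sided permutation gave p = 0.583 for cerebellum against forebrain and p = 0.829 for cortex against hippocampus.

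Per kb of exon, which allows genes to be set side by side, the level in cerebellum was 36.2 ± 2.08 CPM per kb for Nos1, 30.4 ± 12.8 for Gucy1a2, 12.1 ± 0.720 for Nos1ap, 3.30 ± 1.93 for Prkg1 and 1.42 ± 2.00 for Prkg2 (SD, n = 2). In cortex Gucy1a2 came first with 42.0 ± 23.2 CPM per kb, followed by Nos1ap with 27.3 ± 26.8, Nos1 with 8.11 ± 0.613, Prkg2 with 5.22 ± 9.04 and Prkg1 with 3.68 ± 3.88 (n = 3). The place of Prkg2 above Prkg1 there rests on 1 count in cortex 3, and on summed counts Prkg2 had 1.89 CPM per kb (95% interval 0.05 to 10.55) and Prkg1 2.81 (0.58 to 8.20). In hippocampus Gucy1a2 had 27.3 ± 16.5, Nos1ap 22.9 ± 12.1, Nos1 15.1 ± 4.44, Prkg1 3.70 ± 2.64 and Prkg2 3.67 ± 3.61 CPM per kb (n = 4). Many neighbours in these orders lie within each other's SD, such as Gucy1a2 and Nos1ap in cortex. The order depends on the length used: per kb of whole gene, introns included, hippocampus had 0.946 CPM for Nos1, 0.578 for Nos1ap and 0.502 for Gucy1a2, and cerebellum had 0.0706 for Prkg2 and 0.0298 for Prkg1. Nos1 stood above 73.8% of the tested rows with a length in cerebellum, 7.1% in cortex and 28.6% in hippocampus. No such share is given for the kinase genes, which did not pass the filter that chose the tested rows.

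**Figure D2:**
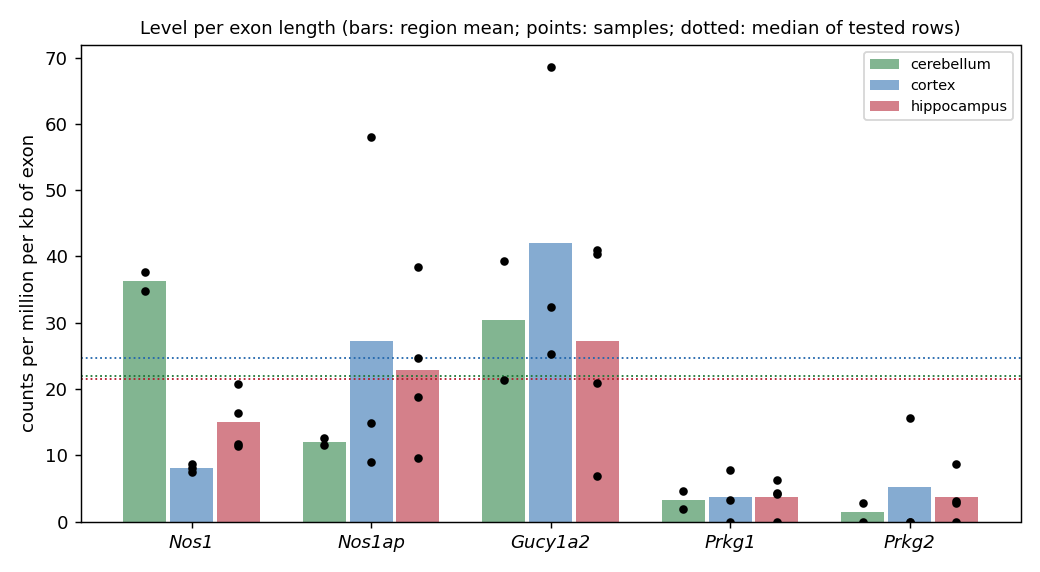
Level per exon length (CPM per kb of exon, vertical axis) of the 5 genes, with bars for the mean of each region, points for samples and dotted lines for the median of tested rows in each region (22.04 in cerebellum, 24.7 in cortex and 21.6 in hippocampus). Nos1 lies above the dotted line in cerebellum and below it in cortex and hippocampus, and the kinase genes, which did not pass the filter behind that line, lie lowest in each region.

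The level of the kinase rows was set beside genes of the same lists whose known sites are the retina, the olfactory epithelium or the gut, a choice made after their values were seen. The 16 such rows, among them the retinal cyclases Gucy2e and Gucy2f and the rod phosphodiesterase subunit Pde6a, had from 0.19 to 10.5 CPM per kb of exon over the 9 samples, with a median of 4.06. Prkg1 had 4.05 CPM per kb (95% interval 2.73 to 5.78) and Prkg2 had 2.46 (1.12 to 4.66), so 9 of the 16 rows stood at or above Prkg1 and 13 at or above Prkg2. Nos1 with 22.3 (19.1 to 25.96), Gucy1a2 with 33.5 (28.4 to 39.3) and Nos1ap with 15.8 (12.5 to 19.7) CPM per kb lay above all 16 values. At this depth the kinase rows were thus not distinguishable from rows of genes known mainly from other organs, for which these data hold no control.

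**Figure D3:**
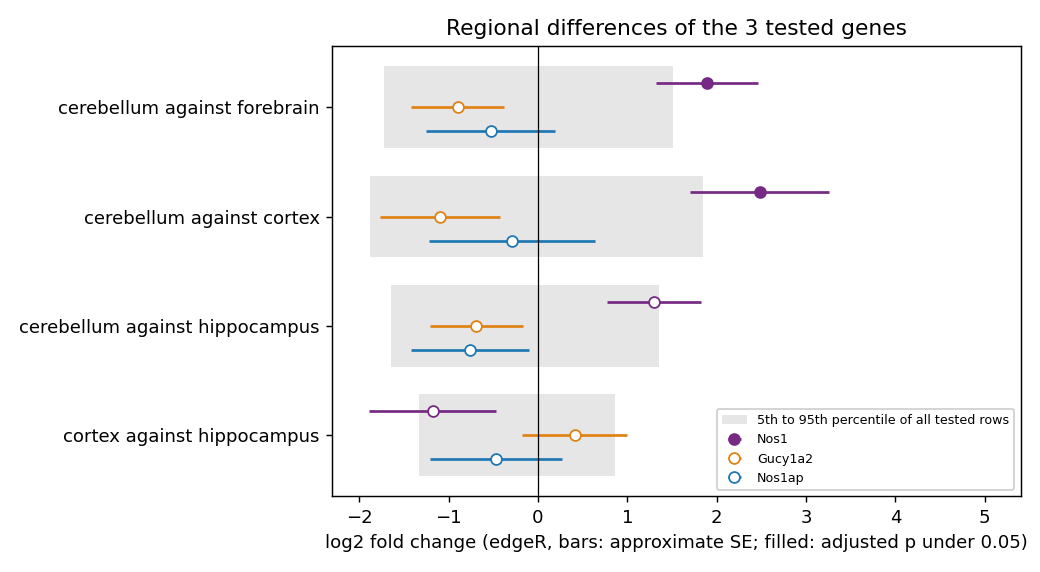
Log2 fold changes (horizontal axis) of Nos1, Gucy1a2 and Nos1ap in 4 comparisons of regions by edgeR, with approximate SE as bars, filled points for an adjusted p under 0.05 and grey boxes for the range from the 5th to the 95th percentile of all tested rows. Nos1 lies to the right of the box in cerebellum against forebrain (1.89) and against cortex (2.48), and Gucy1a2 and Nos1ap lie within the boxes.

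The wider pathway was read from 4 lists of 69 genes, of which 68 had a row and only 11 passed the filter on low counts. Among nitric oxide synthases, arginine supply and partners, 3 of 19 were tested between cerebellum and forebrain, 1 was higher (Nos1) and 0 lower, with a median log2 fold change of -0.53 against 0.002 over all tested rows. Over the 4 lists 2 of the 11 tested were higher and 1 lower, where 3.9% and 3.78% of all tested rows were. The other synthases were sparse: Nos2, the inducible form, had 6 counts in cerebellum, 1 in cortex and 6 in hippocampus, and Nos3, the endothelial form, had 7 in cerebellum, 0 in cortex (which allows up to 30.5 CPM) and 4 in hippocampus. Dlg4, which encodes PSD-95, the scaffold that ties the synthase to the NMDA receptor, had 328 ± 98.8 CPM over the 2 cerebellum samples, 794 ± 187 over the 3 of cortex and 605 ± 272 over the 4 of hippocampus (mean ± SD). For cerebellum over forebrain it had -1.09 on the log2 scale (SE 0.49, adjusted p = 0.185, edgeR). Slc7a1, an arginine transporter, had 69.4 ± 9.29, 56.5 ± 50.6 and 52.8 ± 16.0 CPM in cerebellum, cortex and hippocampus, and was not tested. Ddah1, which breaks down an inhibitor of the synthases, had 61.8 ± 1.46, 90.4 ± 6.84 and 24.1 ± 28.2 CPM, and was not tested either.

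Of 15 guanylyl cyclases, natriuretic peptides and their receptors, Gucy1a2 was the only row tested. Gucy1b3, the beta-1 subunit with which the alpha subunits pair, had 46.1 ± 20.8 CPM over the 2 cerebellum samples, 104 ± 51.0 over the 3 of cortex and 60.4 ± 26.1 over the 4 of hippocampus (mean ± SD). Gucy1a3, the alpha-1 subunit, had 11 counts in cerebellum, 6 in cortex and 17 in hippocampus. Npr2, the receptor of C-type natriuretic peptide, had 79.7 ± 9.05, 17.9 ± 31.1 and 61.2 ± 24.6 CPM in cerebellum, cortex and hippocampus, and Npr3, the clearance receptor, had 56.9 ± 23.2, 38.9 ± 42.4 and 74.8 ± 82.0 CPM.

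Of 14 phosphodiesterases that degrade cGMP or belong to the same families, 3 were tested between cerebellum and forebrain, with 0 higher and 1 lower (median log2 fold change 0.07). The lower one was Pde2a, an enzyme that cGMP itself stimulates, at -2.39 on the log2 scale (SE 0.61, adjusted p = 0.00317, edgeR). Its levels were 87.5 ± 5.22, 1143 ± 222 and 500 ± 411 CPM in cerebellum, cortex and hippocampus (mean ± SD). The groups overlapped, since hippocampus 3 had 8 counts (68.2 CPM), below cerebellum 1 (83.8 CPM) and cerebellum 2 (91.2 CPM). Hippocampus 3 shares its title code with cerebellum 2. In the fit, Pde2a and Nos1 stood on opposite sides of the same comparison. Most listed markers of telencephalic excitatory neurons were lower in that comparison too. Of 6 tested, 5 were called, with a median log2 fold change of -4.09 over the 6. A row can pass the filter on low counts through the forebrain samples alone, so these calls are no separate evidence. Sums over all 10 genes ran from 534.3 to 653.6 CPM in cerebellum and from 1008.6 to 3208.8 CPM in forebrain. Slc17a7, the tested marker not called, had -1.1 (SE 0.48, adjusted p = 0.173, edgeR). Its means were 324.68 ± 14.94, 366.39 ± 333.12 and 316.05 ± 262.03 CPM in cerebellum, cortex and hippocampus. Neurod2, not tested, went the other way, with 133.61 ± 25.99, 44.84 ± 34.73 and 39.32 ± 31.75 CPM in the same order. The part of these markers in the Pde2a difference was not tested. Pde10a had 0.07 (SE 0.65, adjusted p = 0.989) and Pde1a, a calmodulin-stimulated enzyme, 0.46 (SE 1.18, adjusted p = 0.934) in edgeR, though its unblocked means in cerebellum, cortex and hippocampus were 36.5 ± 37.3, 117 ± 104 and 155 ± 145 CPM. Among 20 effectors and kinase substrates with a row, 4 were tested, with 1 higher and 0 lower (median 0.01). The higher one was Itpr1, the inositol trisphosphate receptor that kinase I regulates together with the protein of Mrvi1, with 2708 ± 111 CPM over the 2 cerebellum samples, 692 ± 353 over the 3 of cortex and 486 ± 244 over the 4 of hippocampus (mean ± SD). Its log2 fold change was 2.33 (SE 0.52, adjusted p = 0.000479, edgeR). Itpr1 is itself a Purkinje cell marker. The other 9 markers of that list summed to 2126.7 to 2558.5 CPM in cerebellum, 1092.6 to 2278.6 CPM in cortex and 638.0 to 1021.8 CPM in hippocampus, and none of the 3 tested among them was called. Kcnma1, a potassium channel gene, had -0.33 (SE 0.48, adjusted p = 0.84) and Gtf2i, a transcription factor that kinase I binds, 0.14 (SE 0.57, adjusted p = 0.963) in edgeR. Between cortex and hippocampus 0 of the 11 tested pathway rows passed in edgeR.

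**Figure D4:**
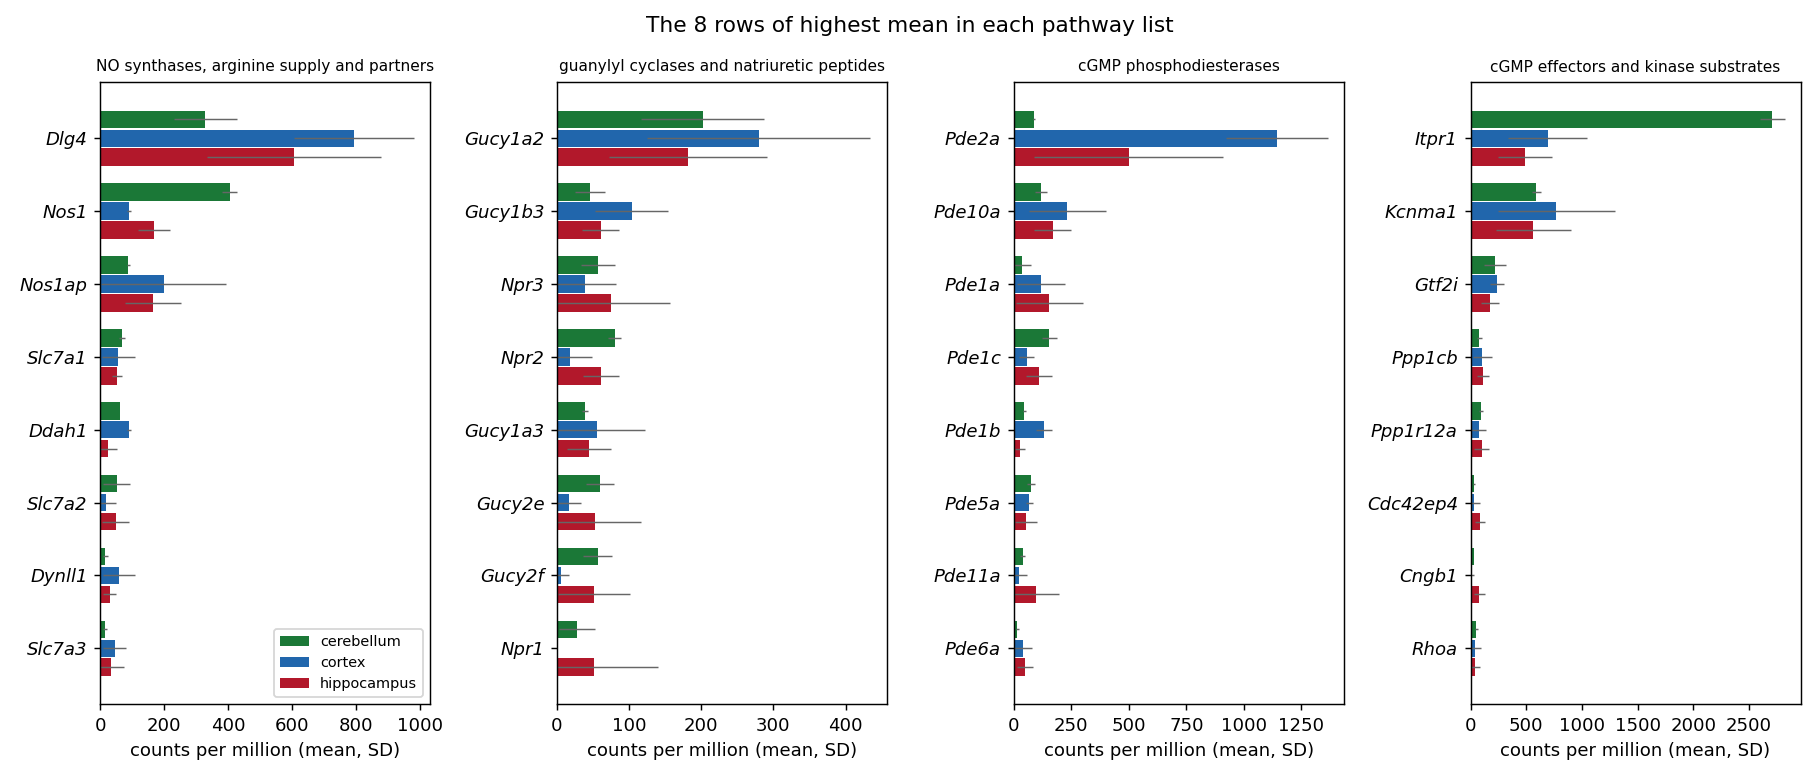
Mean level in CPM (horizontal axis, SD as lines cut at 0) in cerebellum, cortex and hippocampus for the 8 rows of highest mean in each of 4 pathway lists, with a separate scale for each list. Levels can be compared between regions for 1 gene, not between genes, since they are not divided by length. By these means, Nos1 and Itpr1 are highest in cerebellum and Pde2a is lowest there.

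Correlations over the 9 samples used log2 CPM scaled by TMM factors. The tested rows that followed Nos1 most closely were Draxin, a secreted axon guidance protein (Pearson r 0.979), Itsn1, an endocytic scaffold (0.945), and Galnt15, a glycosyltransferase (0.919). Draxin had 310 ± 80.2 CPM in cerebellum, 0 in cortex (which allows up to 30.5 CPM) and 61.0 ± 23.7 CPM in hippocampus, the same order of regions as Nos1. Itsn1 had 789 ± 98.7, 376 ± 78.3 and 474 ± 150 CPM in cerebellum, cortex and hippocampus. Nos1ap was followed most closely by Cbx5 (0.91), Prdm16 (0.908) and Atg16l2 (0.888), and Gucy1a2 by Lynx1 (0.909), Slitrk5 (0.894) and Robo1 (0.88). Among the members themselves r was -0.042 for Nos1 and Nos1ap, -0.21 for Nos1 and Gucy1a2 and -0.244 for Nos1ap and Gucy1a2. These are descriptions: the samples share regions, title codes and depth, and the leading genes were picked from 1720 rows by their r.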

How the data were processed

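The authors deposited a table of whole-number fragment counts per gene symbol for 11 libraries, used as deposited. Per the labels' protocols, tissue was crosslinked with 3 doses of 400 mJ at 254 nm and FMRP-bound RNA was made into small RNA libraries. The submitters' processing notes name mm10, Bowtie 0.12.7 and Picard. The sources used here do not give the counting program, annotation, use of strand or removal of duplicates. Of the sample columns, 0 were left unused.

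CPM use library totals, except in the correlations, which used log2 CPM scaled by TMM factors with a prior count of 2. Rows were tested by quasi-likelihood in edgeR 4.0.16 with TMM factors, filterByExpr by region and Benjamini-Hochberg adjustment over 1720 rows at 0.05, on 9 samples with region and title code (4 residual degrees of freedom). What the codes mean is not stated. Deviations from region means correlated with a median r of 0.132 over 8 same-code pairs (-0.067 to 0.484) and -0.05 over 18 others, across genes. The SE is the absolute log2 fold change over the root of F. Exact permutations used log2(CPM + 13.2), the CPM of 1 count in a library of mean size. They shuffled samples freely across title codes, which are unevenly spread over the regions. Count intervals are two-sided Clopper-Pearson at 95%. A count of 0 is said to allow 3 counts, which lies below the upper end of such an interval. Coordinates and exon lengths are from GENCODE M21 (GRCm38).

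Members and lists were chosen with earlier results of these data known. Named genes were the members, pathway genes called in any comparison, the 3 rows of highest mean CPM in each pathway list with members left out, the 3 rows most correlated with each tested member, and 3 regional markers. Nos2, Nos3, Gucy1a3, the rows of retinal, olfactory or gut genes and other single markers of cell types were named outside this rule, after their values were seen. Alternatives were no block, 10 libraries, RLE or total scaling, no filter, DESeq2 1.42.0, omission of each sample, the library of conflicting labels in either region, only s-titled libraries and, added after seeing the data, omission of the 3 samples with most predicted names and the block dropped together with other changes.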

Additional observations from a re-analysis of the deposited data

Results flagged for a closer look

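The library whose title names cortex and whose tissue label names hippocampus took no part in the comparisons, and the series' own count of 4 cortex and 5 hippocampus libraries would place it in cortex. Of the 5 genes, Nos1ap alone had more counts there than a count of 0 allows, with 5 counts or 164.78 CPM (95% interval 53.5 to 384.5). This value lies within the range of the cortex samples, 65.1 to 420.2 CPM, and of the hippocampus samples, 69.1 to 278.7 CPM. Nos1 had 2 counts there (65.9 CPM), Gucy1a2 and Prkg1 1 count each, and Prkg2 3 counts.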

How the results depend on the processing

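The number of rows called depended strongly on the settings; the cause was not tested. Between cerebellum and forebrain 132 rows were called, against 54 with library totals alone, 1 with no filter on low counts, 87 in DESeq2, 85 with only s-titled libraries and 215 without cortex 3, hippocampus 3 and hippocampus 4 (253 with the block dropped as well). Leaving out 1 sample gave 2 to 176, with 2 without cerebellum 1, 17 without cerebellum 2, 15 without cortex 1 and 81 without hippocampus 1+2. Between cerebellum and cortex 79 were called, against 16, 0, 43, 5 and 142 (201) in the same order of settings, and 130 with the block dropped and the library of conflicting labels as cortex. Leaving out 1 sample gave 0 to 117, with 0 without cerebellum 1, 12 without cerebellum 2, 2 without cortex 1, 28 without cortex 2, 18 without hippocampus 4 and 28 without hippocampus 5. Between cerebellum and hippocampus 110 were called, against 45 with totals alone, 0 with no filter, 70 in DESeq2, 187 with 10 separate libraries and 185 without the 3 samples. Leaving out 1 sample gave 5 to 191, with 10 without cerebellum 1, 5 without cerebellum 2, 58 without cortex 1, 191 without cortex 3, 42 without hippocampus 1+2 and 70 without hippocampus 3 or 5. Between cortex and hippocampus 0 were called, against 1 with 10 libraries, RLE factors, DESeq2, the library of conflicting labels in either region, or in cortex with the block dropped, 3 without the 3 samples and 0 to 1 with 1 sample left out. Without the title-code block the counts were 156, 114, 83 and 0 in the 4 comparisons, and the Nos1 calls against forebrain and cortex were kept. Library totals alone moved the median log2 fold change of all rows to 0.124 against forebrain, 0.229 against hippocampus and 0.244 for cortex over hippocampus.

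The sign of Nos1 held in each alternative of all 4 comparisons, while Nos1ap and Gucy1a2, never called, changed sign in some. For cerebellum over forebrain Nos1ap ran from -1.24 to 0.5 with 1 sample left out, with 0.5 without cerebellum 2 and 0.47 without hippocampus 3. Over cortex it had 0.12 with no filter, 0.18 with s-titled libraries and -1.07 to 0.65 with 1 sample left out, positive without cerebellum 2 (0.65), cortex 3 (0.19) or hippocampus 3 (0.57). Over hippocampus it ran from -1.41 to 0.37, positive without cerebellum 2 (0.36) or hippocampus 3 (0.37), and for cortex over hippocampus from -0.97 to 0.18, positive without cortex 2. Gucy1a2 had 0.02 over cortex with the block dropped and the library of conflicting labels as cortex. Over hippocampus it ran from -1.39 to 0.12, positive without cerebellum 2 (0.12) or hippocampus 3 (0.08), and had 0.0011 without the 3 samples. Cortex over hippocampus gave -0.06 without the block, and -0.45 with that library as cortex as well.

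Differences of mean log2 CPM also changed sign where they were small. Nos1ap in cortex over hippocampus, -0.02, became 0.01 with a pseudocount of 3 counts, 0.24 with 10 libraries and -0.74 to 0.5 with 1 sample left out, positive without cortex 1 (0.5), cortex 2 (0.18), hippocampus 3 (0.06) or hippocampus 5 (0.26). Prkg1 ran from -0.32 to 0.59 for cerebellum over forebrain, negative without cerebellum 2 (-0.32), cortex 1 or hippocampus 4 (-0.13 each). For cortex over hippocampus it ran from -0.83 to 0.67, positive without cortex 1 (0.67) or hippocampus 3 (0.14). Prkg2 ran from -0.93 to 0.05, positive without cerebellum 1, and for cortex over hippocampus had 0.02 with the larger pseudocount and -1.19 to 0.32 with 1 sample left out, positive without cortex 1 (0.31), cortex 2 (0.32) or hippocampus 5 (0.18). Gucy1a2 in cerebellum over forebrain became -0.00073 with the larger pseudocount, -0.04 with 10 libraries and -0.39 to 0.43 with 1 sample left out, negative without cerebellum 1 (-0.39), hippocampus 4 (-0.27) or hippocampus 5 (-0.04). Per kb of whole gene, introns included, Nos1 had 2.27, 0.509 and 0.946 CPM in cerebellum, cortex and hippocampus, Gucy1a2 0.558, 0.773 and 0.502, Nos1ap 0.305 in cerebellum and 0.578 in hippocampus, and Prkg1 0.0298 and 0.0335, which turns the order of genes in hippocampus. Depth limits cortex 1, cortex 3, hippocampus 4 and hippocampus 5, where 1 count is worth 32.6 to 84.0 CPM.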
